A study of Homo sapiens with 4 samples.

Results

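Interferon-stimulated genes are the genes that cells switch on when interferon reaches its receptors, and a list of 40 of them was followed in WM35 melanoma cells treated with C646. The list holds the OAS enzymes, the IFIT proteins, the IFI-named genes, the RIG-I-like RNA sensors, transcription factors of the pathway, the ISG15 system and further antiviral genes. Members were found by their symbol in the platform annotation, with former names allowed. Of the 40 genes, 39 had a probe set annotated with that gene alone, out of 17144 genes so named on the array. Transcript values for STAT2 were not analysed here. A gene with several probe sets is represented by its probe set of highest mean.

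WM35 is an established human line of radial phase melanoma cells. The compound C646 inhibits p300 and its relative CBP, acetyltransferases that act on histones and serve as coactivators of many transcription factors. Per the labels, the groups were WM35 with C646 at 20 µM for 6 h, WM35 with C646 at 20 µM for 24 h, WM35 with DMSO at 0.2% for 6 h and WM35 with DMSO at 0.2% for 24 h. All grew in the same serum-containing medium, and the protocols name no added interferon. Each group was 1 array, and the labels do not say from how many cultures its RNA came.

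In the classical pathway, type I interferon binds a receptor whose JAK1 and TYK2 kinases activate STAT proteins. These join IRF9 in a complex that binds the interferon-stimulated response element, a DNA motif near the start of many of these genes. Interferon gamma uses another receptor and a STAT dimer that binds the GAS motif. Many members keep a low level without added interferon, and several of them, such as IRF9 and the RNA sensors, are themselves parts of the pathway.

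The sequence just before the transcription start is shown for 6 members, because neighbouring or related members differed from each other there and on the arrays. Each line gives the 180 bases before a start, read 5′ to 3′ on the strand of the gene, from RefSeq on GRCh38.p14. Capitals mark matches to the response element core (GAAANNGAAA on either strand) or to the GAS core (TTCNNNGAA). OAS1 (chr12:112906782-112906961, plus strand) and OAS3 (chr12:112938294-112938473, plus strand) are neighbours. So are SAMD9 (chr7:93117980-93118159, minus strand) and SAMD9L (chr7:93148386-93148565, minus strand). IFIT3 (chr10:89327817-89327996, plus strand) and IRF9 (chr14:24161085-24161264, plus strand) lie elsewhere.
OAS1: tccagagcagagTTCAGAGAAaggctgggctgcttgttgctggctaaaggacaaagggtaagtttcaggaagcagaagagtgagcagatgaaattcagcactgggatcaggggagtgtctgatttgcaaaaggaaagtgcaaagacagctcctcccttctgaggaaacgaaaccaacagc
OAS3: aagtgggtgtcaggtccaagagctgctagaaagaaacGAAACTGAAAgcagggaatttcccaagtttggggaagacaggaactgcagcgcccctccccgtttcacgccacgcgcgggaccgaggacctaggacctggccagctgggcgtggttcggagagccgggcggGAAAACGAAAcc
SAMD9: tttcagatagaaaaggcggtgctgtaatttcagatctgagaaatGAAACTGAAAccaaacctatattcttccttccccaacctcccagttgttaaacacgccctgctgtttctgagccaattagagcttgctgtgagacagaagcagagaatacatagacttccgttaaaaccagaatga
SAMD9L: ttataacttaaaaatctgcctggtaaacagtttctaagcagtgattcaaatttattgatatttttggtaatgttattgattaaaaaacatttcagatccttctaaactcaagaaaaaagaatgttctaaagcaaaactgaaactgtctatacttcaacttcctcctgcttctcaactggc
IFIT3: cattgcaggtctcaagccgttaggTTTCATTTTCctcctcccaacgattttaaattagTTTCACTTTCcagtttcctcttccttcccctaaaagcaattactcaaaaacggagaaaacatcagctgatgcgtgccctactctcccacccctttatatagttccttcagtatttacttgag
IRF9: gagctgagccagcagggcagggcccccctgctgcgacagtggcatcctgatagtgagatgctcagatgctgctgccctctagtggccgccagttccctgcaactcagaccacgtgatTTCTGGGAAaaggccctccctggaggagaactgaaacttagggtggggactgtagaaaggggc

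OAS3 carried 2 matches to the response element core in this window and IFIT3 carried 2, SAMD9 carried 1, and OAS1, SAMD9L and IRF9 carried none. OAS1 and IRF9 each carried 1 match to the GAS core. Over windows of 250 bases before to 50 bases after a start, 20 of the 33 members with a window in the table held the response element core (60.6%), against 4.38% of all 27305 genes with one. The GAS core was in 9 of the 33 (27.3%), against 9.38% of all genes. Some genes have several windows, and a gene was counted when any of them matched. A match is a match of letters and not evidence of binding. The core has a fixed gap of 2 bases, so a stretch without a match may still hold a variant of the element. The OAS1 stretch, for instance, holds GAAA and GAAA with 1 base between them near its end.

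The arrays were on a common log2 scale, with medians of 4.39 to 4.41. Values whose mean over the 4 arrays lay below 3.96, the 40th percentile of all 27631 probe sets, were treated as near background, which left 16579 probe sets. Pairs of arrays that included C646 at 24 h had correlations of 0.976 to 0.979, and all other pairs 0.991 to 0.996. All 6 measured melanocyte markers were kept, with PMEL at 10.69 to 10.95. These lineage markers were themselves higher with C646, 5 of 6 at 6 h and 6 of 6 at 24 h, with medians of 0.45 and 0.57. Of 4 measured leukocyte markers, PTPRC (3.33 to 3.37), CD3E and CD14 were near background, and CD68, which other cells also express, read 7.62 to 7.77. Of 4 endothelial markers, 3 were near background, and KDR was higher with C646 by 0.53 and 0.68. Whether any of these moved with the members for a shared reason was not tested. Fewer cells of a type and less RNA per cell cannot be told apart in such bulk samples.

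Of the 39 measured members, 32 were kept and 7 were near background. The 7 were OASL, IFIT1, IFI27, IFI44L, MX1, CMPK2 and RSAD2, and their values ran from 3.39 to 4.30. A further member, IFIT2, was kept although both of its DMSO values lay under 3.96, so it passed only through its C646 values. Without it, in an alternative chosen after the data were seen, the medians below are 0.11 at 6 h and 0.32 at 24 h, with 19 and 26 of 31 members above 0. Levels on these arrays depend on the probes, so they are compared between arrays and not between genes.

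**Figure D1:**
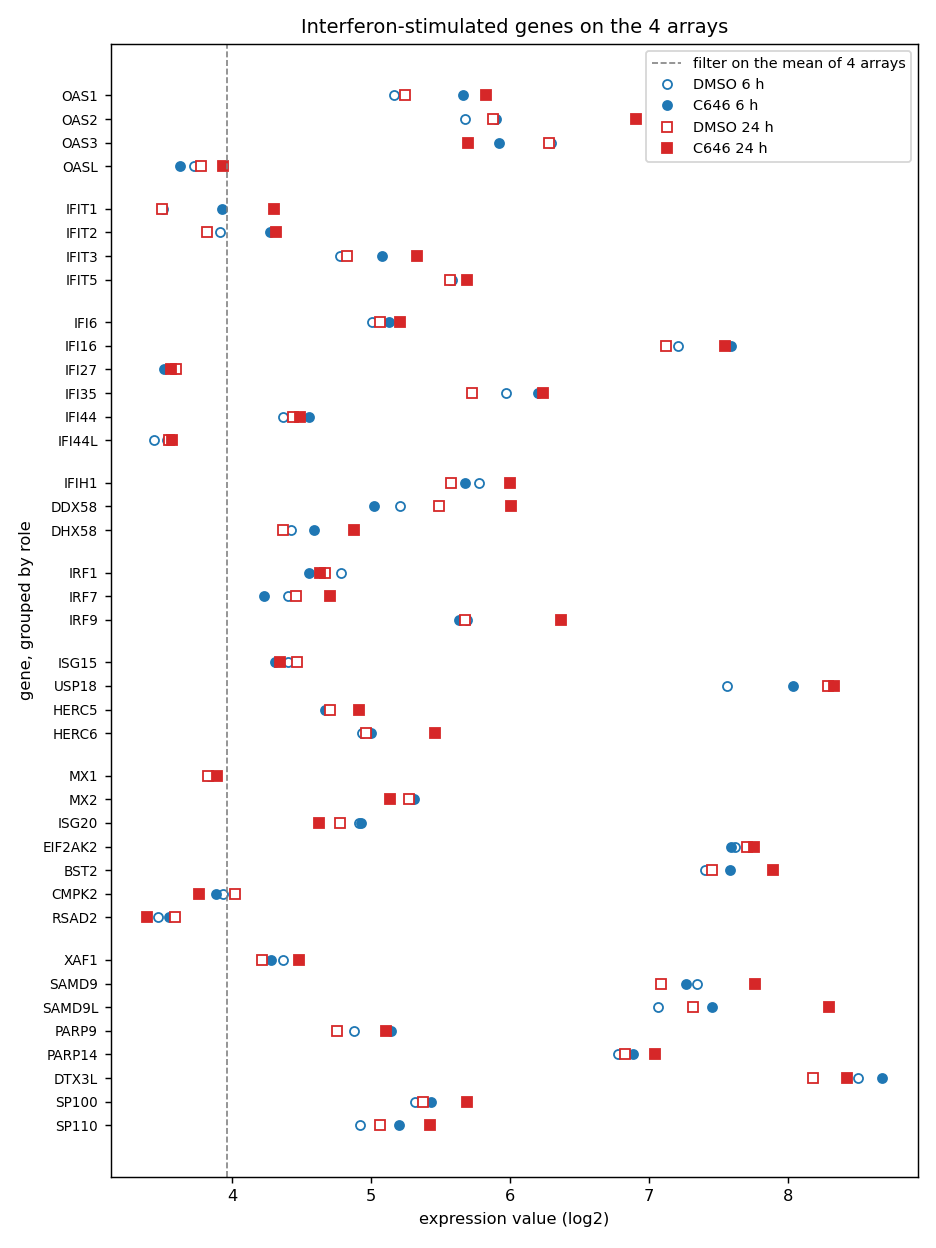
Expression values (log2, x axis) of the 39 measured interferon-stimulated genes on the 4 arrays, with genes grouped by role on the y axis. Open symbols are DMSO, filled symbols C646, circles 6 h and squares 24 h, and the dashed line is the filter at 3.96. The filled square, C646 at 24 h, is the highest value for 23 of the 32 kept genes, against 37.9% of all kept probe sets.

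After 24 h the members lay mostly above their vehicle, by small amounts. The difference between C646 and DMSO at 24 h had a median of 0.33 over the 32 kept members, against 0.030 over all kept probe sets. Of the 32, 27 (84.4%) lay above 0, against 55.0% of all kept probe sets. OAS2 alone was at least 2-fold higher, 1 of 32 where 1.14% of all probe sets were, and none was 2-fold lower where 2.50% were. At least 1.5-fold higher were OAS1, OAS2, IRF9, SAMD9 and SAMD9L, 5 of 32 (15.6%) where 4.96% of all probe sets were, and none was 1.5-fold lower, where 5.34% were. Over all 39 measured members without the filter, the median was 0.25 and 31 lay above 0, against 49.5% of all probe sets. With 1 array per group these differences have no replicate check and no p-value.

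After 6 h the members as a group lay closer to their vehicle than after 24 h, and so did the array as a whole. The size of the difference had a median of 0.11 over all kept probe sets at 6 h and 0.18 at 24 h, so a fixed fold limit was harder to reach at 6 h. The median difference was 0.11 over the 32 kept members, against -0.0024 over all kept probe sets, and 20 of 32 (62.5%) lay above 0 where 49.4% of all probe sets did. No member reached 2-fold at 6 h in either direction, where 0.127% of all probe sets did upward and 0.115% downward. None reached 1.5-fold either, where 1.00% did upward and 1.26% downward. These counts use the probe set of highest mean. Probe sets of lower mean passed 1.5-fold for IRF1, at 0.70, and for USP18, at -0.69. Over all 39 measured members, the median was 0.082 and 24 lay above 0, against 48.0% of all probe sets. Values ran from -0.37 for OAS3 to 0.50 for OAS1, higher than 4.08% and 98.3% of all kept probe sets. USP18, SAMD9L, IFI16 and IFIT2 were higher than 98.1%, 96.8%, 96.7% and 96.2% of them.

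The vehicle itself gives the scale for such differences. Between the DMSO arrays of 24 h and 6 h, the 32 kept members had a median difference of 0.023, and 17 of them lay above 0 (all probe sets 45.2%). None was 2-fold higher (0.0543% of all probe sets) or lower (0.0905%). The size of that difference had a median of 0.084 over all kept probe sets. For 27 of the 32 members the C646 difference at 24 h was larger in size than that gene's own difference between the DMSO arrays, as it was for 72.5% of all kept probe sets. At 6 h this held for 20 of 32, against 58.7% of all kept probe sets. These comparisons share a DMSO array.

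**Figure D2:**
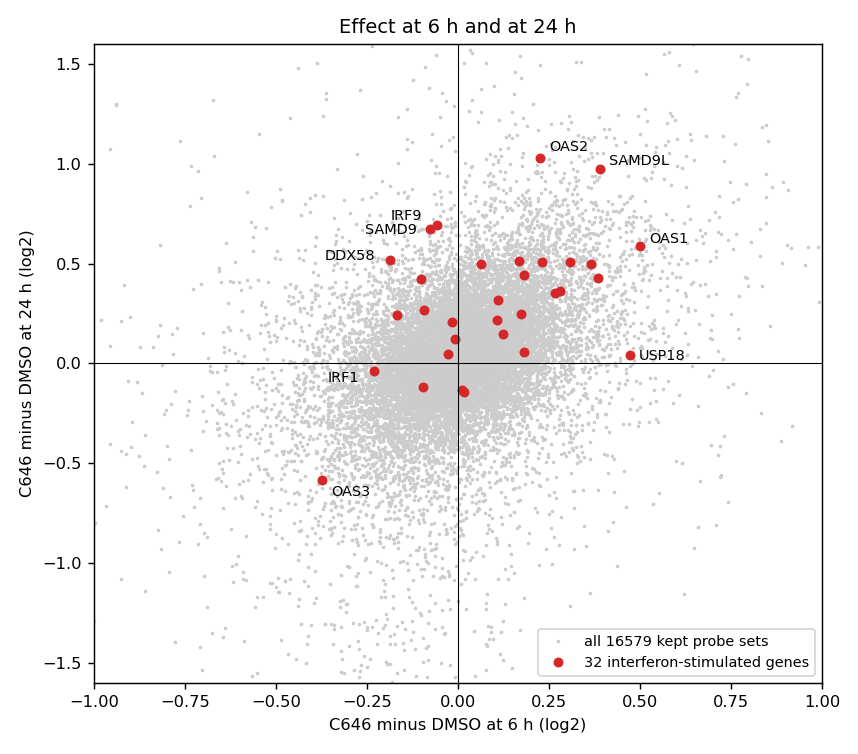
Log2 difference of C646 minus DMSO at 6 h (x axis) and at 24 h (y axis) for the 32 kept interferon-stimulated genes (red) and all 16579 kept probe sets (grey), of which 267 lie outside the axes. Most red points lie above 0 at 24 h; OAS3 is the lowest at both times, and OAS2 and SAMD9L are the highest at 24 h.

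The OAS enzymes went apart. These proteins make oligoadenylates on double-stranded RNA, which activate the ribonuclease RNase L. OAS1, OAS3 and OAS2 lie next to each other on chromosome 12 with no coding gene between them, and the middle gene went opposite to its neighbours at both times.

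OAS2 read 5.67 with DMSO and 5.90 with C646 at 6 h, and 5.87 with DMSO and 6.90 with C646 at 24 h. Only the C646 array of 24 h stood apart, 1.03 above its vehicle (2.04-fold), higher than 99.0% of all kept probe sets. The difference at 6 h was 0.23, or 0.13 against the mean of both DMSO arrays. OAS1 read 5.16 and 5.66 at 6 h and 5.24 and 5.83 at 24 h, DMSO first and C646 second. Both C646 values lay above both DMSO values, by 0.50 at 6 h and 0.59 at 24 h, and the 6 h difference was the highest of any kept member. OAS3 read 6.30 and 5.92 at 6 h and 6.28 and 5.70 at 24 h. Both of its C646 values lay below both DMSO values, by -0.37 and -0.58. OASL, a relative without the synthetase activity, stayed near background at 3.63 to 3.93.

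The IFIT proteins, which bind viral RNA that lacks the host cap structure, differed between members. IFIT2, IFIT3, IFIT1 and IFIT5 lie in a cluster on chromosome 10. IFIT3 read 4.77 with DMSO and 5.08 with C646 at 6 h, and 4.82 and 5.33 at 24 h, a difference of 0.31 and then 0.51. IFIT2 read 3.91 and 4.27 at 6 h and 3.82 and 4.31 at 24 h, a difference of 0.37 and then 0.50. For both genes the C646 values lay above the DMSO values without overlap, and both DMSO values of IFIT2 were near background. IFIT1, near background with DMSO at 3.50 and 3.49, read 3.93 and 4.30 with C646 at 6 h and 24 h. Of its 4 values, only that of C646 at 24 h lay above the filter limit, so the size of its difference is not given. IFIT5 read 5.58, 5.57, 5.57 and 5.69 for DMSO and C646 at 6 h and DMSO and C646 at 24 h. Its 4 values nearly coincided, with differences of -0.0092 and 0.12.

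The IFI-named genes share a name and not a function. IFI16, a sensor of DNA in the nucleus, read 7.21 with DMSO and 7.59 with C646 at 6 h and 7.12 and 7.55 at 24 h. Its difference was much the same at both times, 0.38 and 0.43, with no overlap between C646 and DMSO. IFI35 read 5.97 and 6.20 at 6 h and 5.73 and 6.24 at 24 h. Its C646 values were alike, and the 24 h difference of 0.51 against 0.23 at 6 h went with a DMSO value that was lower by -0.24 at 24 h. Against the mean of both DMSO arrays they were 0.39 and 0.35. IFI6, a mitochondrial protein that counters cell death, differed by 0.12 and 0.15, from 5.01 to 5.13 at 6 h and from 5.06 to 5.21 at 24 h. IFI44 read 4.37 and 4.55 at 6 h and 4.43 and 4.49 at 24 h, a difference of 0.18 and 0.056. IFI27, at 3.51 to 3.59, and IFI44L, at 3.43 to 3.57, were near background. Both are among the genes that interferon raises most in many cells.

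The RIG-I-like receptors detect RNA in the cytoplasm, and all 3 were higher with C646 at 24 h. DDX58, now named RIGI and encoding RIG-I, read 5.21 with DMSO and 5.02 with C646 at 6 h and 5.49 and 6.01 at 24 h. It was at -0.19 at 6 h and at 0.52 at 24 h, while DMSO itself differed by 0.28 between the times. Against both DMSO arrays averaged, DDX58 was at -0.33 and 0.66. IFIH1, which encodes MDA5, read 5.78 and 5.68 at 6 h and 5.58 and 6.00 at 24 h. It went from -0.10 to 0.42, or from -0.0013 to 0.32 against the mean of both DMSO arrays, and its DMSO value was lower by -0.20 at 24 h. DHX58, which encodes LGP2, a regulator of the other two, read 4.42 and 4.59 at 6 h and 4.36 and 4.88 at 24 h. It was higher at both times, by 0.17 and 0.51.

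Set side by side at 24 h, the kept OAS genes had a median of 0.59 (range -0.58 to 1.03, 3 genes), the IFIT genes 0.50 (0.12 to 0.51, 3 genes), the IFI-named genes 0.29 (0.056 to 0.51, 4 genes) and the RIG-I-like receptors 0.51 (0.42 to 0.52, 3 genes). At 6 h the medians were 0.23, 0.31, 0.21 and -0.10 in the same order. The IFIT median at 24 h was the value of IFIT2, which passed the filter only through its C646 values. IFIT3 and IFIT5 were at 0.51 and 0.12. The ranges overlap at 24 h. Differences between these groups of genes were not tested.

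**Figure D3:**
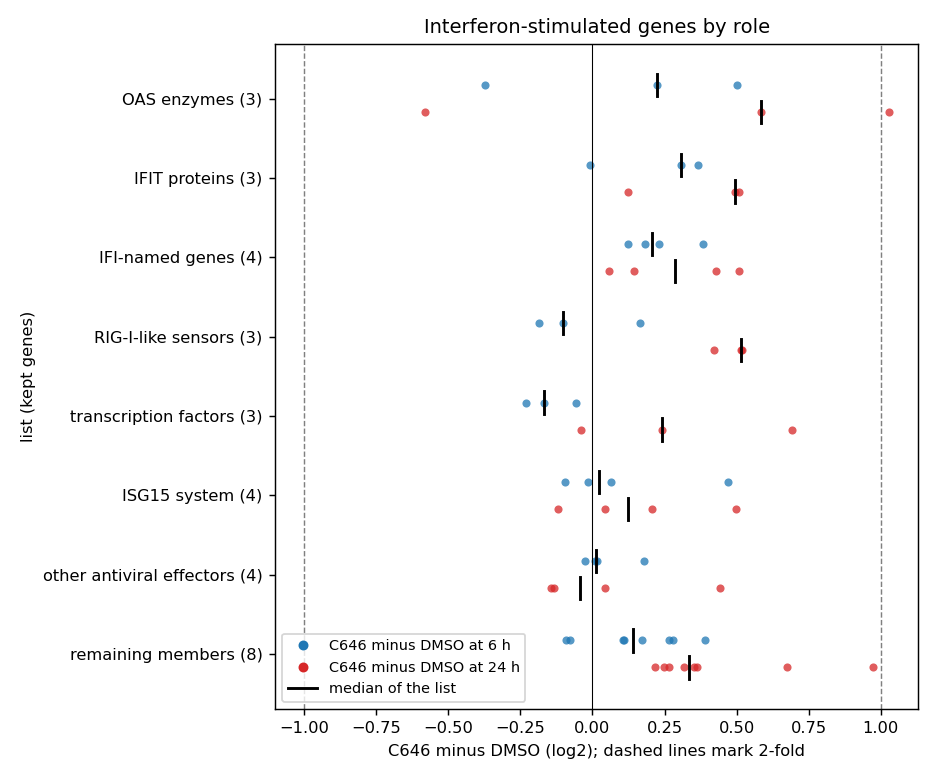
Log2 difference of C646 minus DMSO (x axis) for the kept interferon-stimulated genes by role (y axis, number of genes in brackets), at 6 h (blue) and 24 h (red), with black bars at the medians and dashed lines at 2-fold. The receptors and transcription factors have medians below 0 at 6 h and above 0 at 24 h, and OAS3 lies far left of OAS1 and OAS2.

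Among the transcription factors, IRF9 differed most at 24 h and IRF1 at 6 h. IRF9, the DNA-binding part of the classical complex, read 5.69 with DMSO and 5.63 with C646 at 6 h and 5.67 and 6.37 at 24 h. The first 3 values lay within 0.058 of each other, and the C646 value of 24 h was 0.69 above its vehicle (1.62-fold). IRF7, which amplifies interferon production, read 4.40 and 4.23 at 6 h and 4.46 and 4.70 at 24 h, a difference of -0.17 and then 0.24. IRF1, which responds strongly to interferon gamma, read 4.78 and 4.55 at 6 h and 4.67 and 4.63 at 24 h. IRF1 was the one factor below 0 at both times, at -0.23 and -0.039. A second IRF1 probe set, with a lower mean, read 3.95 and 4.66 at 6 h and 3.98 and 3.95 at 24 h, so the direction at 6 h differed between the probe sets.

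ISG15 is a ubiquitin-like protein that is attached to others by HERC5 and removed by USP18. ISG15 was low, at 4.40 and 4.30 at 6 h and 4.46 and 4.34 at 24 h, and lay slightly below its vehicle at both times (-0.096 and -0.12). HERC6, a relative of HERC5, read 4.94 and 5.00 at 6 h and 4.96 and 5.46 at 24 h. Its neighbour on chromosome 4, HERC5, read 4.68 and 4.66 at 6 h and 4.70 and 4.91 at 24 h. Both had their highest value on the C646 array of 24 h, above its vehicle by 0.50 for HERC6 and 0.21 for HERC5. These differences were higher than 92.8% and 74.8% of all kept probe sets. USP18 read 7.56 and 8.03 at 6 h and 8.29 and 8.33 at 24 h. Its difference was 0.47 at 6 h and 0.043 at 24 h, and DMSO alone was 0.72 higher at 24 h than at 6 h, the largest vehicle difference of any kept member. Against the mean of both DMSO arrays USP18 was at 0.41 at 24 h and 0.11 at 6 h. The 3 probe sets of USP18 disagreed: the others differed by 0.28 and -0.69 at 6 h and by 0.39 and -0.29 at 24 h. USP18 has close copies on the same chromosome, so its values are uncertain.

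Several classical antiviral effectors did not share the shift. MX2, a GTPase active against retroviruses, read 5.30 and 5.31 at 6 h and 5.27 and 5.14 at 24 h, and ISG20, an RNA exonuclease, read 4.91 and 4.93 at 6 h and 4.77 and 4.63 at 24 h. Of the 32 kept members, these were the ones below 0 only at 24 h, at -0.13 and -0.14. EIF2AK2, the kinase PKR that halts translation on double-stranded RNA, was within 0.045 of its vehicle at both times, at 7.59 to 7.75. BST2, which tethers virus particles to the cell surface, was the exception, with 7.41 and 7.59 at 6 h and 7.45 and 7.89 at 24 h. Its difference was 0.18 and then 0.44, and both C646 values lay above both DMSO values. MX1, at 3.82 to 3.89, and the neighbours CMPK2, at 3.76 to 4.02, and RSAD2, at 3.39 to 3.59, were near background.

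SAMD9 and SAMD9L, neighbours on chromosome 7 that restrict poxviruses and cell growth, were both higher at 24 h. SAMD9L read 7.07 with DMSO and 7.46 with C646 at 6 h and 7.32 and 8.29 at 24 h. It differed by 0.39 at 6 h and by 0.97 at 24 h (1.96-fold), just short of 2-fold and above 98.8% of all kept probe sets. SAMD9 read 7.35 and 7.27 at 6 h and 7.09 and 7.76 at 24 h. It was at -0.078 at 6 h and at 0.67 at 24 h, and its DMSO value was lower by -0.26 at 24 h. Against the mean of both DMSO arrays the 6 h value turned to 0.052 and the 24 h value was 0.54.

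The remaining members lay above 0 at 24 h by smaller amounts. PARP9 and its partner DTX3L, adjacent on chromosome 3, form an ADP-ribosylation and ubiquitin ligase complex. PARP9 read 4.88 and 5.14 at 6 h and 4.76 and 5.11 at 24 h, a difference of 0.27 and 0.35. DTX3L differed by 0.17 and 0.25, with values between 8.18 and 8.68, but by 0.33 and 0.086 against both DMSO arrays averaged, and PARP14 close by differed by 0.11 and 0.22. The nuclear body proteins SP110 and SP100 differed by 0.28 and 0.36 and by 0.11 and 0.32. XAF1, which promotes cell death, was at -0.093 at 6 h and at 0.27 at 24 h.

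The time course under C646 differed between members. Of the 32 kept members, 18 lay above 0 at both times, 3 below 0 at both (OAS3, IRF1 and ISG15), 9 below at 6 h and above at 24 h, and 2 the reverse. The same sign at both times was seen in 21 of 32, against 64.5% of all kept probe sets, so the share was near that of the array. The C646 effects of 6 h and 24 h share no array, and across the 32 genes they correlated at r = 0.47 and rho = 0.36, where genes are not independent replicates. The effect was higher at 24 h than at 6 h in 26 of 32 (all probe sets 55.4%), with a median difference of 0.16, and no member differed 2-fold in this respect (all probe sets 0.941% higher and 2.20% lower). The largest were OAS2 at 0.80, SAMD9 and IRF9 at 0.75 each, and DDX58 at 0.71. Between the C646 arrays, OAS2 alone was 2-fold higher at 24 h than at 6 h, by 1.005, where 0.869% of all probe sets were. None was 2-fold lower, where 2.41% were, and 25 of 32 lay above 0, against 53.5% of all probe sets.

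The design has no replicates within a group, and limma fits of 2 kinds took their error from elsewhere. A limma fit of treatment with time as a term, on all 4 arrays, called none of the 32 kept members (0 of 16579 probe sets, 0.00%, lowest limma adjusted p 0.448). Without adjustment, 10 members and 1828 probe sets had a limma p under 0.05. That fit takes its error, with 1 residual degree of freedom, from the disagreement of both times. Here and in the fit below, limma also moderated each error toward a trend over all kept probe sets (3.02 prior degrees of freedom here). OAS1 (0.54 ± 0.10, SE), IFIT2 (0.43 ± 0.083, with both DMSO values under the filter) and OAS3 (-0.48 ± 0.12) had the lowest unadjusted limma p-values among members, 0.0061, 0.0064 and 0.015.

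A limma fit of another kind compared C646 at 24 h with the DMSO arrays of both times, the lone C646 array being assumed to vary as the DMSO arrays do. The spread of C646 cultures was not measured, so a gene that rose or fell in this fit did so on this array against these DMSO arrays. At a limma adjusted p under 0.05 over all probe sets, 9 of the 32 kept members rose, where 6.68% of all probe sets did, and 1 fell, where 6.90% did. OAS2 rose by 1.13 ± 0.12 (SE, limma adjusted p = 0.013), SAMD9L by 1.10 ± 0.14 (0.018), IRF9 by 0.69 ± 0.086 (0.018) and OAS1 by 0.63 ± 0.090 (0.024). IFIT3 (0.029), HERC6 (0.030), DHX58 (0.035), IFIT2 (0.043) and BST2 (0.046) rose too, by limma estimates of 0.45 to 0.53. OAS3 fell by 0.59 ± 0.087 on the log2 scale (limma adjusted p = 0.024). DDX58 (0.053), SAMD9 (0.077) and IFI16 (0.073) did not pass in limma, with estimates of 0.66, 0.54 and 0.39. Without the filter, the calls of IFIT2, IFIT3, DHX58, HERC6 and BST2 ended, and fewer of all probe sets passed too. With quantile normalization those of IFIT2 and BST2 ended (limma adjusted p 0.062 and 0.061). This fit has no time term, so it takes in the difference between the DMSO arrays, and the spread it uses is not that of replicate cultures. Without IFIT2, which passed the filter only through its C646 values, 8 of 31 rose and 1 fell.

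Members with and without the response element core in the promoter window were compared as a description. Of the kept members with a window, 15 held the core and had a median difference of 0.21 at 24 h, with 12 above 0, and 11 did not and had a median of 0.50, with 10 above 0. At 6 h the medians were 0.017 and 0.11. For the GAS core, the 7 members with it had a median of 0.44 at 24 h and the 19 without it 0.27, and at 6 h 0.18 and 0.017. OAS2, the highest member at 24 h, and IFIT2, DHX58, IRF7, USP18 and MX2 had no window. OAS3, whose stretch is shown above with 2 matches, was the lowest member at 24 h, and SAMD9L, with none, was among the highest. Of the others shown, IFIT3 with 2 matches was at 0.51 and SAMD9 with 1 at 0.67. OAS1 and IRF9, with none, were at 0.59 and 0.69. The stretches shown were picked because members differed, so no relation can be read from them. The windows do not cover distal elements, and members without an exact match to a core may hold a variant of it.

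The other genes of the pathway were taken from a list of 100 chosen from general knowledge, with earlier results of these data known. Of these, 74 had a probe set of their own and 53 were kept. The interferons themselves were near background: 8 of the 9 measured ligands had means under the filter, with IFNB1 at 2.85 to 2.92 and IFNG at 3.08 to 3.17. IFNA8 was just above it, at 4.07 to 4.19. The 4 kept receptor chains had a median difference of -0.039 at 24 h, from IFNAR2 at -0.19 to IFNGR1 at 0.29, and IFNAR1 was at -0.049. JAK1, JAK2, TYK2 and STAT3 had a median of -0.022, with JAK2 lowest at -0.15 and STAT3 highest at 0.30. The kept negative regulators were PTPN11 at -0.14 and PTPN2 at -0.055.

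Sensing genes upstream of interferon went apart at 24 h, with a median of 0.048 over 12 kept genes. CGAS, which encodes the cytosolic DNA sensor, read 4.78 with DMSO and 4.76 with C646 at 6 h and 4.77 and 3.94 at 24 h. The C646 array of 24 h alone was low, by -0.83, at a value under the limit of 3.96 and so near background. CGAS fell in the limma fit of 24 h against both DMSO arrays (limma adjusted p = 0.011). STING1, the adaptor that acts directly after CGAS, read 6.32 and 6.14 at 6 h and 6.21 and 6.98 at 24 h, higher by 0.76 (limma adjusted p = 0.021). TLR3, the endosomal receptor for double-stranded RNA, was higher by 0.63 (0.025 in the same limma fit).

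Among 25 kept further interferon-stimulated genes outside the 40, the median was 0.22 at 24 h and 0.14 at 6 h, and 19 lay above 0 at 24 h (55.0% of all kept probe sets). TRIM22, an antiviral TRIM protein, read 5.27 and 5.53 at 6 h and 5.93 and 7.87 at 24 h. It was higher by 1.94 at 24 h, and DMSO itself was 0.66 higher at 24 h than at 6 h. By the probe sets of highest mean, TRIM22 was the only one of the 53 kept pathway genes past 2-fold (1.14% of all probe sets). Another probe set of TRIM38 was higher by 2.11 at 24 h. APOL6 was lowest, at -0.28. In the limma fit of 24 h against both DMSO arrays, STING1, TLR3, TRIM22, TRIM38, PML, IFI30, UBE2L6, UBA7 and PARP10 rose and CGAS fell. The estimates of those that rose ran from 0.55 for UBE2L6 to 2.27 for TRIM22. Many of all probe sets rose or fell in the same fit, at the shares given above. Fewer pathway genes passed without the filter, and fewer of all probe sets did too. UBE2L6 and UBA7 encode the conjugating and activating enzymes for ISG15, and they were higher by 0.51 and 0.67 at 24 h.

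Of 5 kept interferon gamma targets all lay above 0 at 24 h (55.0% of all kept probe sets), with a median of 0.40. They ran from CIITA at 0.17 to the guanylate-binding protein gene GBP4 at 0.52. Both CIITA values of 24 h, 3.72 with DMSO and 3.89 with C646, were under the filter limit. Against both DMSO arrays averaged, CIITA was at 0.027. Of the targets near background, GBP5, IDO1, CXCL9, CXCL10 and IRF8 lay below 0 at 24 h, and only CXCL11 lay above. None of the 5 kept targets was 2-fold different at 24 h. None of the 5 rose in limma. CXCL11, a chemokine of this group whose mean was under the filter, read 3.20 with DMSO and 3.86 with C646 at 6 h and 3.27 and 4.67 at 24 h. Only the C646 value of 24 h was above the filter limit, so the size of the difference is not given, while its relatives CXCL9 and CXCL10 stayed between 3.26 and 3.59 on every array.

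**Figure D4:**
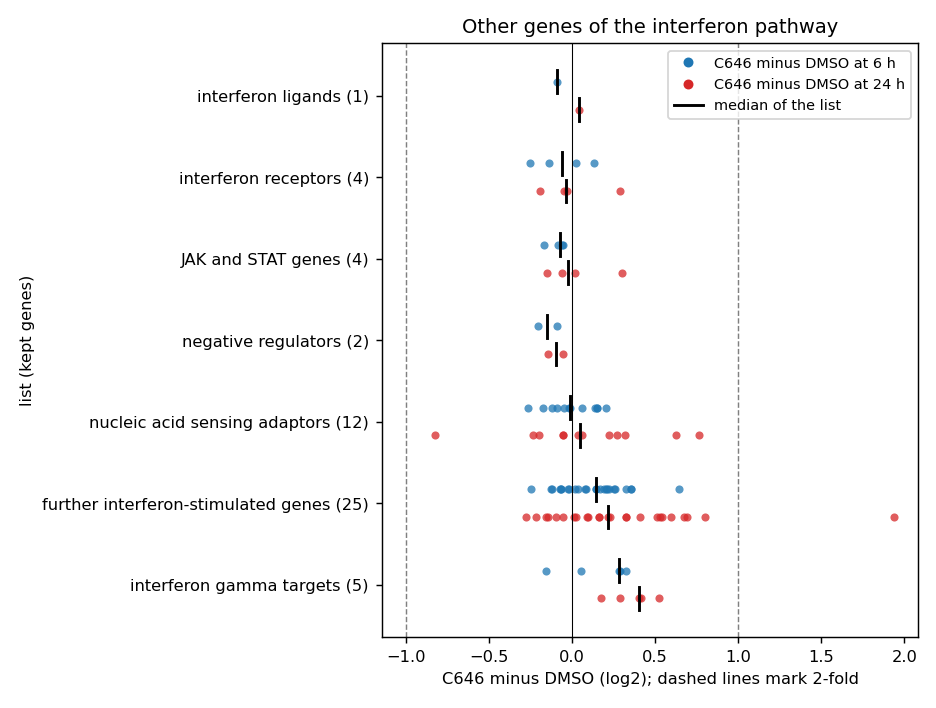
Log2 difference of C646 minus DMSO (x axis) for the 53 kept genes of the interferon pathway outside the 40 members, by list (y axis, number of genes in brackets), at 6 h (blue) and 24 h (red), with black bars at the medians and dashed lines at 2-fold. Receptors, JAK and STAT genes lie around 0, TRIM22 at 1.94 is the rightmost point and CGAS at -0.83 the leftmost.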

How the data were processed

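Messenger RNA of WM35 cells was measured on Affymetrix GeneChip Human Exon 1.0 ST arrays, 1 array per group, after labelling of 100 ng of total RNA. The authors' deposited table holds log2 values for 27631 gene-level probe sets; that scale was inferred from their range, and no source used here names how they were summarised or normalised. The submitters' processing notes name hg19; no coordinates of that build were used. The platform annotation named 1 gene for 20429 of them, more than 1 for 4232 and no gene for 2970, and 20362 of the first were updated through a GRCh38.p14 gene table. Probe sets under the 40th percentile of the mean were set aside. Differences are log2 differences of single arrays, counted at 2-fold. Fits used limma 3.58.1 in R 4.3.3 (lmFit, eBayes with trend) over all kept probe sets with Benjamini-Hochberg adjustment at 0.05. Only the fit with time as a term was run on simulated data, with planted changes larger than those of any member. The fit of 24 h against both DMSO arrays was not tested in this way. The number of arrays limits the precision.

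Named in the text are all members, and of each pathway list those at least 2-fold different and the highest and lowest at 24 h; genes that passed in limma, and further pathway genes such as IFNAR1, IFNB1, IFNG, UBA7, UBE2L6, TLR3, CXCL9 and CXCL10, were chosen after their values were seen. Probe set numbers follow the chromosomes: 6.77% of 19809 placed probe sets were numbered among those of another chromosome, but none that stands for a member was, and ISG15 could not be placed. The members and lists were chosen with earlier results of these data known. Alternatives were other filters, all probe sets of a gene, quantile normalization, both DMSO arrays as control, own-chromosome probe sets, a 1.5-fold limit, eBayes without trend and leaving out each array.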

Additional observations from a re-analysis of the deposited data

Results flagged for a closer look

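For 4 of the 32 kept members the difference between C646 and DMSO had opposite signs at 6 h and 24 h, and each was larger than the median vehicle difference of 0.084. The share of all kept probe sets that meet this rule was not counted, so the 4 cannot be called unusual. Without a limit on size, the same sign was seen in 21 of 32 members and in 64.5% of all kept probe sets. The change from 6 h to 24 h was 0.71 for DDX58, 0.52 for IFIH1, 0.41 for IRF7 and 0.36 for XAF1. With 1 array per group, the difference between the times was not tested. For DDX58, IFIH1 and XAF1 the DMSO arrays themselves differed by 0.28, -0.20 and -0.16, and the part of this in the result was not tested. Against the mean of both DMSO arrays, IFIH1 was at -0.0013 at 6 h and 0.32 at 24 h, DDX58 at -0.33 and 0.66, and XAF1 at -0.014 and 0.19, so the 6 h values of IFIH1 and XAF1 were then smaller than 0.084. OASL, which was near background, also had opposite signs, at -0.10 and 0.16.

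A probe set whose annotation lists EIF2AK2 together with ARL14EP, and which was assigned to neither, was higher with C646 at 24 h by 0.59. That probe set is numbered among those of chromosome 11, whereas EIF2AK2 lies on chromosome 2. The probe set of EIF2AK2 alone differed by 0.045.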

How the results depend on the processing

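Medians over the members kept their direction under every alternative run. The median difference at 24 h was 0.25 without the filter and 0.42 with it at the 60th percentile. At 24 h, 2 members were past 2-fold against the mean of both DMSO arrays (OAS2 and SAMD9L). Against the DMSO array of 24 h alone, 5 were at least 1.5-fold higher, where 4.96% of all kept probe sets were. Between the C646 arrays, quantile normalization put 2 members past 2-fold. For the mean of both DMSO arrays and for quantile normalization, the share of all probe sets was not counted. In the limma fit over both times, leaving out each array in turn called 0 to 10 members, with the time term dropped as well, since 3 arrays cannot carry it. The 10 came without the C646 array of 6 h, which is the fit of 24 h against both DMSO arrays, so the array and the time term changed together. Without the filter or with quantile normalization, that fit called fewer members, all of them among those it called before. Fewer of all probe sets passed in these settings too. Of the single-member values, 8 of 180 at 24 h and 10 of 180 at 6 h moved by more than 0.084. Many of the 180 could not move, because the other filters and the own-chromosome rule leave the values of a kept gene unchanged. The mean of all probe sets can change only genes with several. These shares are thus no measure of stability. With the mean of all its probe sets, IRF1 at 6 h was at 0.24 and USP18 at 0.021. No paired analysis was possible because each group holds 1 array, so a replicate number cannot serve as a block; the fit with time as a term compares treatment within each time. Members near background cannot be ranked, and small differences cannot be told from the spread between cultures, which was not measured.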

Other observations

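Some further interferon-stimulated genes had a second probe set that went another way or much further, chosen after the values were seen. TRIM38 was higher with C646 at 24 h by 0.69 in the probe set with the highest mean and by 2.11 in the other, which read 6.73 with DMSO and 8.83 with C646. PML was at 0.54 and -0.23 in its probe sets, and ZC3HAV1 at -0.10 and -0.69. DDX60L was alike in both, at 0.53 and 0.47.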
